A study of Mus musculus with 10 samples.

Results

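The transcripts of 10 transporters that carry peptides and amino acids across the intestinal epithelium were examined in mouse jejunum: Slc15a1, Slc6a19, Slc6a20a, Slc7a9, Slc3a1, Slc1a1 and Slc36a1, which work at the luminal side, and Slc3a2, Slc7a7 and Slc7a8, which work at the blood side. They were picked by gene name, and each matched exactly 1 of the 45707 rows of the expression table. RNA sequencing was done on whole jejunum from 5 Vil-Cre mice and 5 Vil-Cre:NDI1 mice, with 1 library per mouse. Vil-Cre mice carry only a Cre recombinase driven by the villin promoter, from the Jackson Laboratory Vil1-cre line. Vil-Cre:NDI1 mice carry the same Cre and, at the ROSA26 locus, NDI1, the yeast NADH dehydrogenase, behind a lox-stop-lox cassette that Cre removes in the intestinal epithelium. Both groups were littermate males of 8 to 12 weeks. They had been fasted overnight, had received water by gavage and were sampled 1 h later, so neither had eaten shortly before. The libraries held 10145705 to 12371530 reads on genes. The comparison asks whether epithelial NDI1, by itself, was accompanied by a change in the absorptive machinery for protein digestion products.

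Dietary protein reaches the jejunal surface as short peptides and free amino acids. The proton-coupled carrier PepT1 (Slc15a1) takes up di- and tripeptides, the sodium-coupled carrier B0AT1 (Slc6a19) takes up neutral amino acids, and SIT1 (Slc6a20a) takes up proline and other imino acids. The pair of b0,+AT (Slc7a9) with its heavy chain rBAT (Slc3a1) exchanges cationic amino acids and cystine for neutral ones, EAAT3 (Slc1a1) takes up glutamate and aspartate, and PAT1 (Slc36a1) co-transports protons with small amino acids. At the basolateral membrane the heavy chain CD98 (Slc3a2) pairs with the light chain y+LAT1 (Slc7a7), which exports cationic amino acids, or with LAT2 (Slc7a8), which exchanges neutral ones.

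The sequence in front of 4 of these genes is shown because their transcripts moved together, or against each other, across the mice as described further on: Slc15a1 and Slc3a1 were high in the same mice, whereas Slc7a8 was low where Slc1a1 was high. The sequences are the RefSeq GRCm38.p6 bases before the start site, 5′ to 3′ on the coding strand, kept to the part outside annotated exons of the gene. Slc15a1 is at chr14:121505255-121505454 on the minus strand, Slc3a1 at chr17:85028147-85028346 on the plus strand, Slc7a8 at chr14:54781947-54782086 on the minus strand and Slc1a1 at chr19:28834935-28835048 on the plus strand. Capitals mark the motif letters searched.
Slc15a1: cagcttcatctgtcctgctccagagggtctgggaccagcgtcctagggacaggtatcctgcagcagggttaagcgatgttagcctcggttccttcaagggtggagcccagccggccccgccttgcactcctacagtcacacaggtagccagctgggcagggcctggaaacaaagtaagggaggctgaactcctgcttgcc
Slc3a1: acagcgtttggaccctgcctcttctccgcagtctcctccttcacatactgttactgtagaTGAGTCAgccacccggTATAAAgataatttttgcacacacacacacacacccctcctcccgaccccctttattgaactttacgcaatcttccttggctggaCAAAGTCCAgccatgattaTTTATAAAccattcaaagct
Slc7a8: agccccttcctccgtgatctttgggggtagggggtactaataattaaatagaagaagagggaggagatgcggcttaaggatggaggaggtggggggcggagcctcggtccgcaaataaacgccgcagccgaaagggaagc
Slc1a1: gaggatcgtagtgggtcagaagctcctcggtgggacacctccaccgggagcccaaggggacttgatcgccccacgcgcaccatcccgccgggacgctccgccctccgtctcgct

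Across the 200 bases before the start site of each of the 10 genes, 4 motifs were searched on both strands. The HNF4 motif was searched as CAAAGTCCA. The letters AGATAAG stood for the sites of GATA factors. The TATA box was taken as TATAAA. The AP-1 site was taken as TGANTCA. Slc3a1 was the only gene of the 10 whose window held any of them. It held CAAAGTCCA once, 39 to 31 bases before the start, letters that are present in 0.317% of the 32851 windows of the same length. It held TGAGTCA once, an AP-1 match of a kind found in 5.48% of windows, and TATAAA 3 times, letters found in 9.96% of windows. A pair of those TATAAA matches, on opposite strands, overlapped just before the start. These are matches of letters and say nothing of binding. The window of Slc1a1 was the richest in G and C of the 10, at 73.0%, against a median of 53.0% over all windows. For Slc6a19 the RefSeq start lay 8144 bases from that of the transcript used below.

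The label check came first. NDI1 had 982, 1371, 2575, 1394 and 1511 normalized counts in the 5 Vil-Cre:NDI1 libraries and 0, 0, 1.00, 0 and 0 in the 5 Vil-Cre libraries, the single non-zero control value being 1 read. A normalized count is a gene's read count divided by 1 scaling factor for its library. The jejunum libraries held high levels of the enterocyte markers, with a summed value of 413102 to 678967 over 13 genes in Vil-Cre and 551589 to 743462 in Vil-Cre:NDI1. Vil-Cre 5 was the lowest of all 10 mice in this sum and Vil-Cre:NDI1 5 the highest. All 13 enterocyte markers were higher on average in Vil-Cre:NDI1, with a median log2 fold change of 0.21, and none passed the test after adjustment. The libraries also differed in markers of position along the gut. Onecut2, a proximal gene, stood at 341 to 744 in Vil-Cre 3 and 4 and Vil-Cre:NDI1 1, 2 and 3, and at 20.6 to 81.0 in Vil-Cre 1, 2 and 5 and Vil-Cre:NDI1 4 and 5. In the first 5 libraries the ileal bile acid genes Slc10a2 and Fabp6 reached at most 21.0 and 5.01, and in the other 5 they stood at 199 to 561 and 36.4 to 1477. Markers of other cells differed in average direction between genotypes, with summed values that overlapped in every list. All 7 goblet markers were lower on average in Vil-Cre:NDI1, with a summed value of 88009 to 115706 in Vil-Cre and 68069 to 100993 in Vil-Cre:NDI1. All 5 markers of the villus base were higher, with a median log2 fold change of 0.91 and sums of 17411 to 56940 and 31355 to 75858. Of 7 villus tip markers 6 were higher, with a median of 0.31. All 5 tested B and plasma cell markers and 5 of 6 fibroblast and endothelial markers were lower, with medians of −0.38 and −0.16. Of 6 tested Paneth cell markers 5 were lower, of 7 T cell markers 6 and of 6 smooth muscle markers 5. Of 8 crypt and cycling cell markers 6 were higher, of 4 tested adipocyte markers 3 and of 7 enteroendocrine markers 3. By limma 2 of the villus tip and 2 of the fibroblast and endothelial markers had an unadjusted p under 0.05. All 5 proximal markers were higher, with a median of 0.36, and all 4 tested ileal markers lower, with a median of −0.53. None of the genes in these lists was called, and their part in the results below was not tested. Because the tissue was whole, fewer cells of a type and less RNA per cell cannot be told apart.

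Among the 10 transporters, the peptide carrier Slc15a1 was the most abundant transcript and the glutamate carrier Slc1a1 the least. Levels between genes were compared as normalized counts per kilobase of the principal coding transcript, as mean ± SD over 10 mice. Slc15a1 stood at 5160 ± 1342 and Slc6a19 at 3930 ± 469. The basolateral heavy chain Slc3a2 came next, at 2417 ± 357. Slc7a7 at 1603 ± 178, Slc3a1 at 1523 ± 390 and Slc7a9 at 1449 ± 217 formed a middle group. Slc7a8 stood at 1104 ± 299 and Slc6a20a at 900 ± 202. Slc36a1 at 513 ± 145 and Slc1a1 at 186 ± 90.8 closed the order.

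Most neighbours in this order could not be separated by their ranges. The range of Slc6a19, which began at 3281, lay wholly above that of Slc3a2, which ended at 2777, and this was the only step between neighbours without overlap. Slc15a1 exceeded Slc6a19 in 9 of 10 mice and Slc3a2 exceeded Slc7a7 in 10 of 10. Slc7a7 exceeded Slc3a1, Slc3a1 exceeded Slc7a9, and Slc7a9 exceeded Slc7a8, in 7 of 10 mice each. With the length of all merged exons in place of the principal transcript, Slc3a1 moved from rank 5 to rank 3. The light and heavy chain of the luminal exchanger were close to equal per kilobase of principal transcript, with a Slc7a9 to Slc3a1 ratio per kilobase of 0.808 to 1.33 and a median of 0.975. At the blood side each light chain, taken alone, stood below the shared heavy chain in every mouse on this length. Slc7a7 was at 0.558 to 0.895 times Slc3a2 and Slc7a8 at 0.332 to 0.539 times Slc3a2. The light chains summed were not compared with Slc3a2. Over merged exons, a length applied to these ratios after the data were seen, Slc7a9 stood at 0.586 to 0.963 times Slc3a1, Slc7a7 at 0.743 to 1.19 times Slc3a2, with 9 of 10 mice below 1, and Slc7a8 at 0.526 to 0.853 times Slc3a2. The ratio of Slc7a8 to Slc7a7 varied over mice by 2.18-fold, from 0.433 in Vil-Cre:NDI1 4 to 0.942 in Vil-Cre 4.

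**Figure D1:**
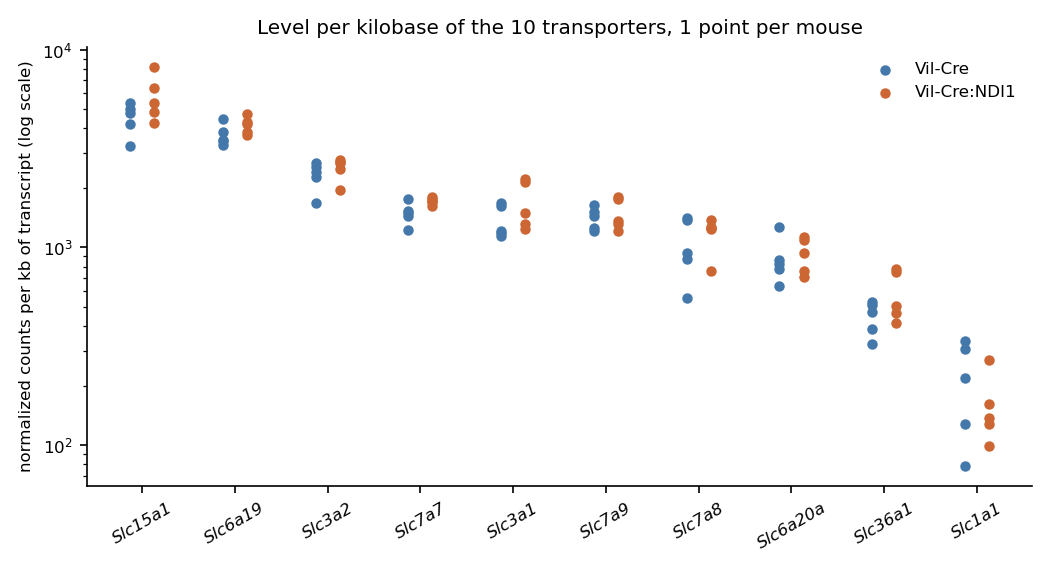
Normalized counts per kilobase of transcript for the 10 transporters, ordered by mean, on a log scale, with 1 point per mouse (5 Vil-Cre in blue, 5 Vil-Cre:NDI1 in orange). Slc15a1 and Slc6a19 stand at the top, with lowest points at 3249 and 3281, and Slc1a1 at the bottom, between 78.3 and 336.

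None of the 10 transporters passed the test between genotypes. The limma test with Benjamini-Hochberg adjustment over 14301 genes called 1 gene, NDI1 (0.00699% of genes tested), and the adjusted p of every transporter was 0.998. At an unadjusted p under 0.05, 1 of the 10 passed, against 4.24% of all genes tested. DESeq2, run on the recovered reads, called 31 genes (0.183%) and 0 of the 10, with 1 transporter at an unadjusted p under 0.05. edgeR called 1 gene (0.00699%) and 0 of the 10, with none at an unadjusted p under 0.05. In no transporter did the values of the groups separate without overlap, which 0.699% of all genes did. On average 9 of the 10 were higher and 1 was lower in Vil-Cre:NDI1, where 51.2% of all genes tested were higher. Their median log2 fold change was 0.19, against 0.01 over all genes. The median of the 10 was 0.12 without Vil-Cre 5 and 0.13 with libraries rescaled to equal totals. Several of the 10 were correlated across mice, as given further on, so the 9 are not separate observations.

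**Figure D2:**
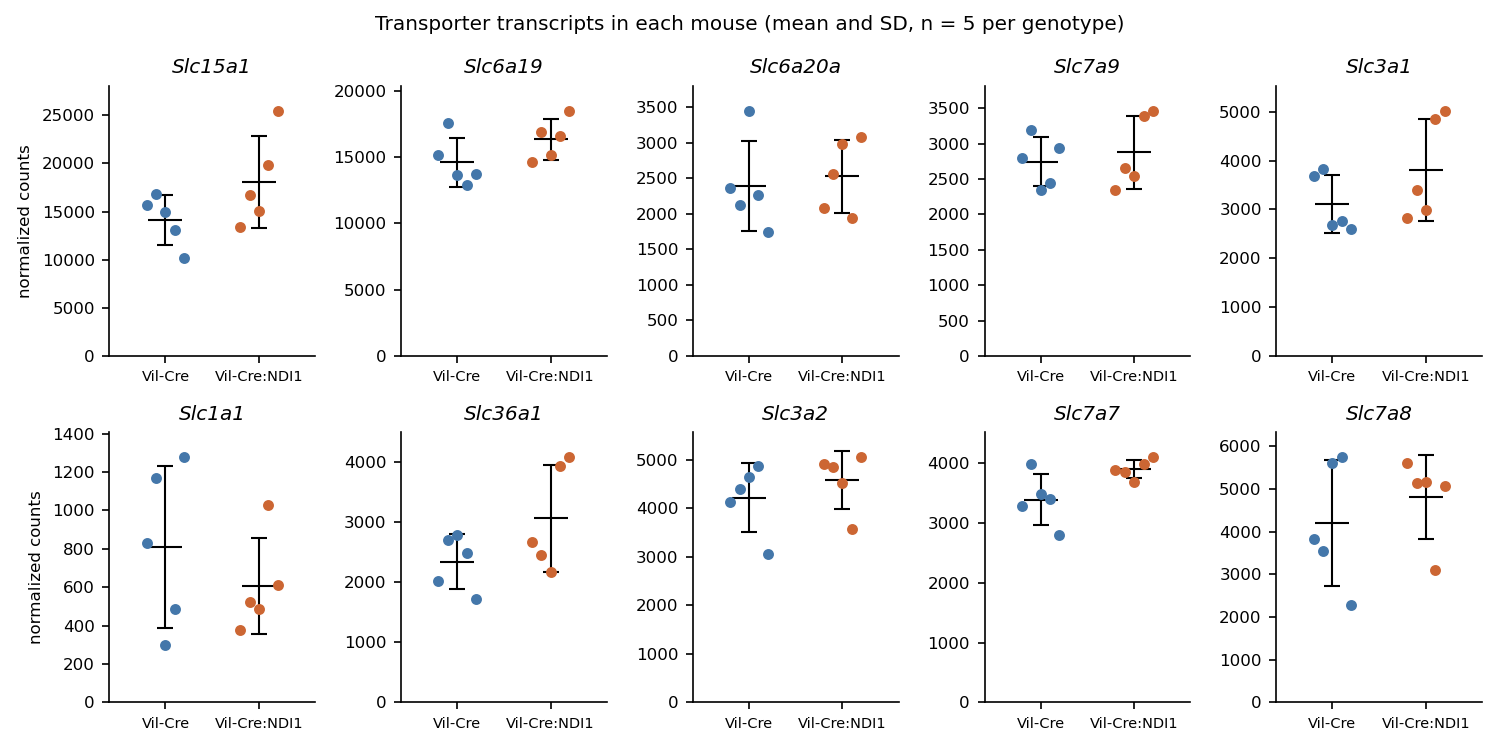
Normalized counts of each transporter in each mouse on a linear axis from 0, with the mean and SD of 5 Vil-Cre (blue) and 5 Vil-Cre:NDI1 mice (orange). The points of both genotypes overlap in every panel.

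Among the luminal carriers, Slc15a1 read 15650, 16811, 14960, 13100 and 10141 normalized counts in Vil-Cre mice 1 to 5, and 13353, 16676, 15015, 19840 and 25494 in Vil-Cre:NDI1 mice 1 to 5. The lowest value was that of Vil-Cre 5 and the highest that of Vil-Cre:NDI1 5, and the remaining 8 mice overlapped in large part. In log2 terms the fold change was 0.34 ± 0.19 (SE), with a 95% interval of −0.07 to 0.75 and an exact permutation p of 0.151. Leaving out single mice gave 0.21, without Vil-Cre:NDI1 5, to 0.44.

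Slc6a19 had the smallest ratio of highest to lowest mouse of the 10, at 1.43, with Slc7a7 next at 1.47. It read 15112, 17569, 13651, 12914 and 13735 in Vil-Cre and 14634, 16915, 15111, 16555 and 18497 in Vil-Cre:NDI1. The groups overlapped, since Vil-Cre 2 was above 4 of the 5 Vil-Cre:NDI1 mice. The log2 fold change was 0.17 ± 0.11, with an interval of −0.07 to 0.40. Slc6a20a read 2356, 2124, 3451, 2262 and 1749 in Vil-Cre and 2085, 2553, 2982, 1934 and 3081 in Vil-Cre:NDI1. Its highest and its lowest mouse were both Vil-Cre, and the log2 fold change was 0.09 ± 0.18, ranging from −0.01 to 0.24 when single mice were left out. Its close copy Slc6a20b was low, at 53.6 to 129 normalized counts. Of the 100-base windows of the Slc6a20a transcript, 27.4% were shared with Slc6a20b or with exons of an antisense gene, Gm17120, which reached 188 normalized counts.

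The subunits of the cystine carrier differed little in direction. The heavy chain Slc3a1 read 3680, 3823, 2679, 2755 and 2594 in Vil-Cre and 2814, 3397, 2982, 4843 and 5024 in Vil-Cre:NDI1. The Vil-Cre:NDI1 mice 4 and 5 were above all others, and the other 3 lay among the controls. Its log2 fold change was 0.27 ± 0.19, with an interval of −0.14 to 0.68, and 0.16, without Vil-Cre:NDI1 5, to 0.37 when single mice were left out. The opposite-strand gene Prepl, which reached 812 normalized counts, covers part of the Slc3a1 transcript, in which 23.1% of windows were shared. The strand setting of the counting was not given in the sources used here. Slc7a9 read 2800, 3189, 2349, 2441 and 2943 in Vil-Cre and 2339, 2650, 2545, 3390 and 3467 in Vil-Cre:NDI1. Again the Vil-Cre:NDI1 mice 4 and 5 stood highest, with mouse 1 of the same genotype lowest of all 10. The log2 fold change of 0.06 ± 0.13 was the smallest in size of the 10, and its sign turned under 6 of 25 alternatives.

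Slc36a1 had the largest average increase of the 10, at a log2 fold change of 0.36 ± 0.20 and an interval of −0.07 to 0.80. It read 2026, 2703, 2781, 2489 and 1713 in Vil-Cre and 2663, 2448, 2176, 3936 and 4081 in Vil-Cre:NDI1. The Vil-Cre:NDI1 mice 4 and 5 were above all controls, and the other 3 of that genotype lay within the control range. Leaving out Vil-Cre:NDI1 5 gave 0.25, leaving out Vil-Cre:NDI1 4 gave 0.26, and the highest such value was 0.47.

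Slc1a1 was the single transporter that was lower on average in Vil-Cre:NDI1 and the most variable of the 10, with a ratio of highest to lowest of 4.30. It read 829, 1167, 298, 487 and 1278 in Vil-Cre and 375, 523, 487, 1028 and 612 in Vil-Cre:NDI1. The controls alone spanned the range of all 10 mice. The estimate on the log2 scale was −0.31 ± 0.39 with an interval of −1.18 to 0.55, so that levels down to 0.443-fold of the control stayed within the error at this number of mice. It was −0.63 without Vil-Cre 3 and −0.10 without Vil-Cre 5. An opposite-strand gene, 4430402I18Rik, shared 27.8% of its windows but had at most 56.8 normalized counts itself.

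At the blood side, Slc7a7, the exporter of cationic amino acids, was the only one of the 10 with an interval clear of 0. It read 3291, 3999, 3480, 3404 and 2802 in Vil-Cre and 3890, 3855, 3692, 3990 and 4107 in Vil-Cre:NDI1. All 5 Vil-Cre:NDI1 mice lay above 4 of the 5 controls, and the control Vil-Cre 2 lay among them. The log2 fold change was 0.21 ± 0.09, with an interval of 0.01 to 0.41, which is 1.16-fold. The unadjusted p of limma was 0.0419, the exact permutation p was 0.0397 where 5 against 5 mice can give 0.00794 at the least, and the p adjusted over all genes was 0.998. Leaving out single mice gave estimates of 0.14, without Vil-Cre 5, to 0.27. The unadjusted limma p was then under 0.05 only without Vil-Cre 2 (0.00962) or Vil-Cre:NDI1 3 (0.0454). With all mice it was 0.0800 with libraries rescaled to equal totals and 0.0641 with array weights, but 0.0413 for genes reaching 50 in 5 libraries. The opposite-strand gene Oxa1l, which reached 727 normalized counts, shared 6.01% of the windows of Slc7a7.

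Slc3a2 read 4120, 4384, 4632, 4875 and 3052 in Vil-Cre and 4919, 4842, 4526, 3561 and 5052 in Vil-Cre:NDI1. In both genotypes 1 mouse was well below the other 4, Vil-Cre 5 and Vil-Cre:NDI1 4. Slc3a2 thus had a log2 fold change of 0.13 ± 0.14, and 0.02 without Vil-Cre 5 but 0.22 without Vil-Cre:NDI1 4. Its light chain Slc7a8 read 3824, 3557, 5604, 5749 and 2275 in Vil-Cre and 5601, 5144, 5164, 3097 and 5059 in Vil-Cre:NDI1. The same mice, Vil-Cre 5 and Vil-Cre:NDI1 4, were lowest. Its log2 fold change was 0.25 ± 0.25, with an interval of −0.30 to 0.79, and 0.04 without Vil-Cre 5 but 0.40 without Vil-Cre:NDI1 4. For 9 of the 10 transporters the interval lay within a 2-fold change in either direction, Slc1a1 being the exception.

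The same genotype contrast was also taken relative to the summed enterocyte markers. That list holds Fabp1, also a proximal marker, and Apoa4, also a villus tip marker. Its sum was 612355 to 678967 in the libraries with high Onecut2. In the others it was 413102 to 551589, except for 743462 in Vil-Cre:NDI1 5. A division by this sum therefore does not separate enterocyte content from position. With each transporter divided by the summed enterocyte markers of its library, a ratio chosen after the data were seen, 4 were higher and 6 lower in Vil-Cre:NDI1. The log2 difference of Slc7a7 was then −0.01 (exact permutation p = 0.944), that of Slc15a1 0.12 (p = 0.540) and that of Slc36a1 0.14 (p = 0.579) by the same exact test. The largest in size was that of Slc1a1, at −0.53 (exact permutation p = 0.397). The part of enterocyte content in the differences before this division was not tested.

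**Figure D3:**
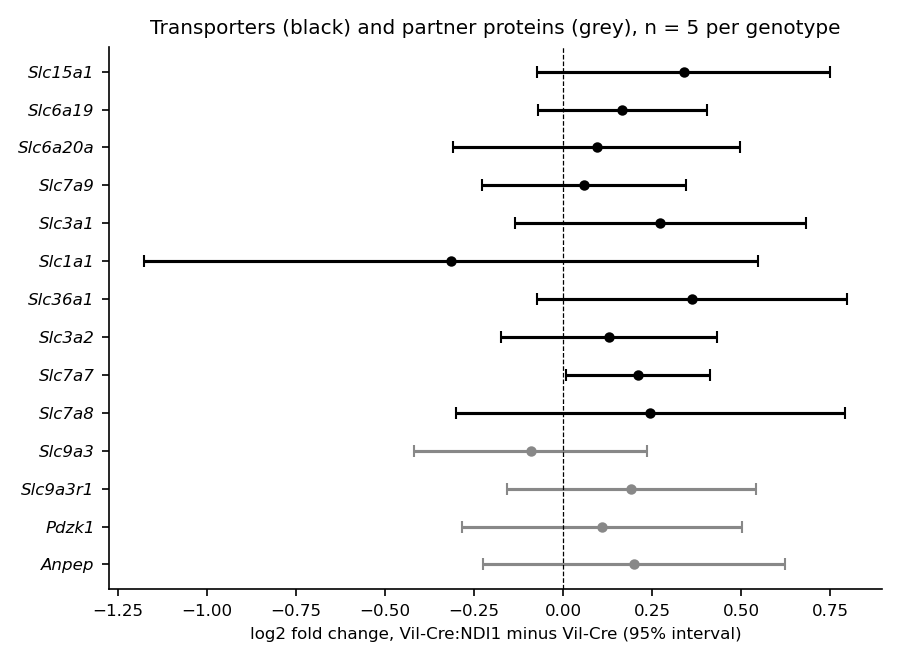
Log2 fold change of Vil-Cre:NDI1 over Vil-Cre with its 95% interval from limma, for the 10 transporters (black) and 4 partner proteins (grey), 5 mice per genotype. Every interval but that of Slc7a7 crosses 0, and Slc1a1 has the widest, from −1.18 to 0.55.

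Partner proteins of the carriers gave a similar picture, with 3 of 4 tested genes higher in Vil-Cre:NDI1, a median log2 fold change of 0.15 and none called. Anpep, the brush-border aminopeptidase N, had a log2 fold change of 0.20 ± 0.19. Slc9a3r1, a scaffold under the brush border, had 0.19 ± 0.16, and Pdzk1, another scaffold, had 0.11 ± 0.18. Slc9a3, the sodium-proton exchanger NHE3, had −0.09 ± 0.15. Tmem27, also known as collectrin, was near 0 in all mice and could not be tested.

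Further amino acid and peptide carriers, mostly of the plasma membrane, gave a mixed picture, and no test was made of their difference from the 10. Of 30 such genes, 22 could be tested, 8 were higher and 14 lower in Vil-Cre:NDI1, and the median log2 fold change was −0.03 with none called. Their summed value was 18149 to 23123 in Vil-Cre and 21648 to 25753 in Vil-Cre:NDI1, and the 3 highest per kilobase were all higher on average in Vil-Cre:NDI1. The highest of them per kilobase was Slc43a2, a facilitative carrier of large neutral amino acids, at 1554 normalized counts per kilobase and a log2 fold change of 0.22 ± 0.11. Slc16a10, the aromatic amino acid carrier TAT1, followed at 745 per kilobase and a log2 fold change of 0.15 ± 0.21, then the taurine carrier Slc6a6 at 596 and 0.14 ± 0.09. In limma, 2 low genes reached an unadjusted p under 0.05. Slc6a17 averaged 39.3 normalized counts in Vil-Cre and 77.6 in Vil-Cre:NDI1, a log2 fold change of 1.03 ± 0.29, with an unadjusted limma p of 0.00395 and an adjusted p of 0.998. The peptide carrier Slc15a2 had a log2 fold change of −1.58 ± 0.62, with an unadjusted limma p of 0.0273 and an adjusted p of 0.998. Slc15a2, also called PepT2, averaged 87.4 normalized counts in Vil-Cre and 43.5 in Vil-Cre:NDI1, far below its intestinal relative Slc15a1.

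Carriers of lysosomal and other intracellular membranes were low. Of the 10 tested, 6 were higher and 4 lower, with a median log2 fold change of 0.03 and none called. Slc38a10 led at 330 normalized counts per kilobase with a log2 fold change of 0.00 ± 0.08, followed by Pqlc2, a lysosomal exporter of cationic amino acids, at 72.7 and the lysosomal cystine exporter Ctns at 68.9. The lysosomal peptide carrier Slc15a3 reached an unadjusted p of 0.0467, with a log2 fold change of −1.05 ± 0.47 and a limma adjusted p of 0.998, at 4.56 to 42.7 normalized counts.

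Across individual mice, regardless of genotype, several of the transporters were correlated with each other. The partners of each exchanger were compared first, over 10 mice on the log2 scale, with permutation p-values adjusted over 5 pairs, of which 3 are given. The basolateral Slc3a2 and Slc7a8 had a Pearson r of 0.94 (permutation adjusted p = 0.0015) and a Spearman rho of 0.72 (permutation adjusted p = 0.067). Leaving out the 2 mice farthest from the median, Vil-Cre 5 and Vil-Cre:NDI1 4, lowered r to 0.76. The luminal Slc3a1 and Slc7a9 had an r of 0.84 (permutation adjusted p = 0.00685) and a rho of 0.71 (permutation adjusted p = 0.067), and r fell to 0.60 without Vil-Cre:NDI1 4 and 5. Both r values held with each genotype's mean subtracted, at 0.94 and 0.87. Slc3a2 with Slc7a7 had an r of 0.60 (permutation adjusted p = 0.066) and a rho of 0.42 (raw permutation p = 0.232), and r was 0.49 without Vil-Cre 5 and Vil-Cre:NDI1 4.

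**Figure D4:**
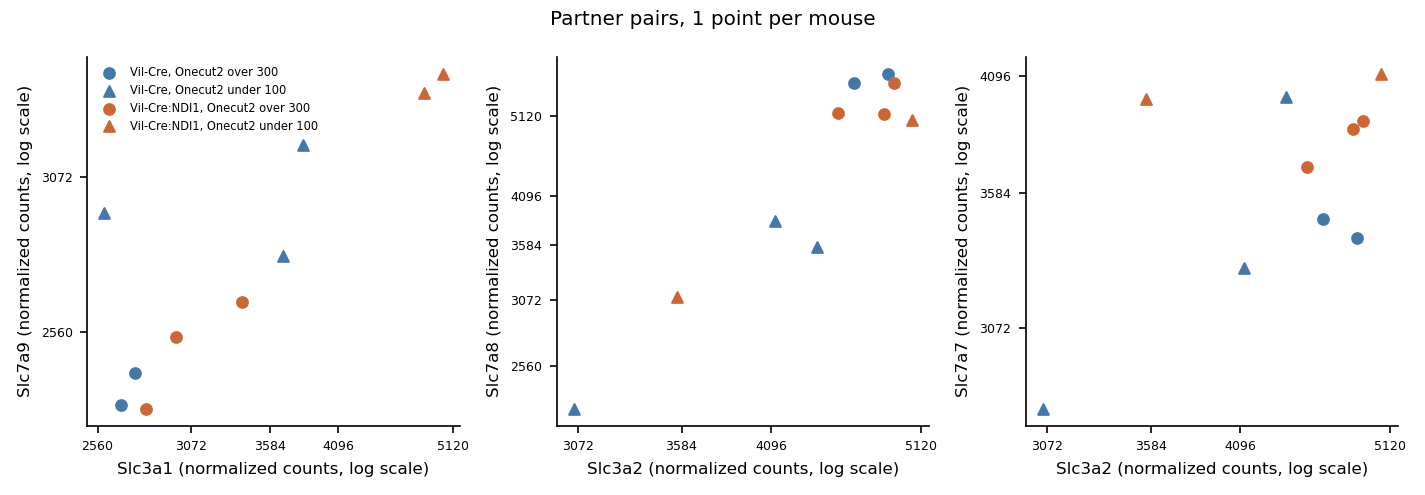
Normalized counts of partner pairs on log axes, 1 point per mouse, colour for genotype and shape for the level of Onecut2. In the middle panel Vil-Cre 5 and Vil-Cre:NDI1 4 lie at the lower left and the other mice at the upper right.

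Among all 45 pairs of the 10 transporters, a choice of pairs made after the data were seen, 34 had a positive r. With permutation p-values of Pearson r adjusted over 45, 8 positive and 2 negative pairs passed. No such share was computed for pairs of other genes, so these counts are not shown to be particular to the transporters. By Spearman rho, adjusted alike, Slc15a1 with Slc3a1 (permutation p = 0.0072) and Slc7a8 with Slc1a1 (0.0099) passed. So did Slc6a19 with Slc3a1 and Slc15a1 with Slc6a19 (0.0135 each). No other pair passed by rho, with Slc3a2 with Slc7a8 at 0.0885 and Slc3a2 with Slc1a1 at 0.1485. The adjusted p-values that follow are those of r. The mean standardised log2 level of the 10 was lowest in Vil-Cre 5 (−1.14) and highest in Vil-Cre:NDI1 5 (1.19). These libraries also had the lowest and highest total of normalized counts, at 10164897 and 12106474. The part of these totals in the correlations was not tested. The strongest luminal pair was Slc15a1 with Slc3a1, at an r of 0.90, a rho of 0.95 and an adjusted permutation p of 0.0018, and r stayed at 0.91 without the 2 farthest mice. Slc6a19 with Slc3a1 had an r of 0.85 and a rho of 0.89, and Slc15a1 with Slc6a19 an r of 0.82 and a rho of 0.90, each with an adjusted permutation p of 0.0202. Slc36a1 passed with Slc15a1 (r = 0.84) and Slc7a7 (r = 0.79), but these fell to 0.57 and 0.58 without the 2 farthest mice. The 2 negative pairs joined Slc1a1 with Slc7a8 and with Slc3a2. Slc7a8 with Slc1a1 had an r of −0.91, a rho of −0.92 and an adjusted permutation p of 0.0027, and r stayed at −0.91 without Vil-Cre 5 and Vil-Cre:NDI1 4. Slc3a2 with Slc1a1 had an r of −0.74, a rho of −0.65 and an adjusted permutation p of 0.0438, and r was −0.53 without the same mice.

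Several transporters differed between the mice that the position markers set apart. In the 5 mice with high Onecut2, Slc1a1 read 298 to 523, and in the 5 mice with ileal bile acid genes it read 612 to 1278, with no gap between these ranges beyond those within them. Slc7a9 read 2339 to 2650 in the former and 2800 to 3467 in the latter, again without overlap. Slc7a8 went the other way, at 5144 to 5749 in the former and 2275 to 5059 in the latter. The ratio of Slc7a8 to Slc1a1 per kilobase therefore ran from 1.66 in Vil-Cre 5 to 17.5 in Vil-Cre 3, a 10.6-fold range among controls alone. The sets did not overlap in these 3 transporters and overlapped in the other 7, where 4.91% of all genes tested did not overlap. With each set's mean subtracted, the partner pairs had an r of 0.95 for Slc3a2 with Slc7a8 and 0.78 for Slc3a1 with Slc7a9. By the same measure Slc7a8 with Slc1a1 had an r of −0.74 (permutation p adjusted over 45 = 0.0215) and Slc3a2 with Slc1a1 an r of −0.58 (0.130). By Pearson r, 14 of all 45 pairs passed after this subtraction and 10 without it. The centred values were permuted over all mice regardless of set, so the p-values after subtraction can be too small. Subtracting set means leaves differences in position within a set. In the mice with ileal bile acid genes, the proximal marker Lct still ran from 6088 in Vil-Cre 5 and 13478 in Vil-Cre:NDI1 4 to 23310. These r values therefore cannot be told apart from position. Of the 7 transporters whose sets overlapped, Slc15a1 read 13100 to 16676 in the mice with high Onecut2 and 10141 to 25494 in the others. Slc6a19 read 12914 to 16915 and 13735 to 18497. The sets held 2 Vil-Cre and 3 Vil-Cre:NDI1 mice, and 3 Vil-Cre and 2 Vil-Cre:NDI1 mice. They are defined by measured genes and not by the labels, so no test was made between them, and the site of sampling was not given in the sources used here.

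**Figure D5:**
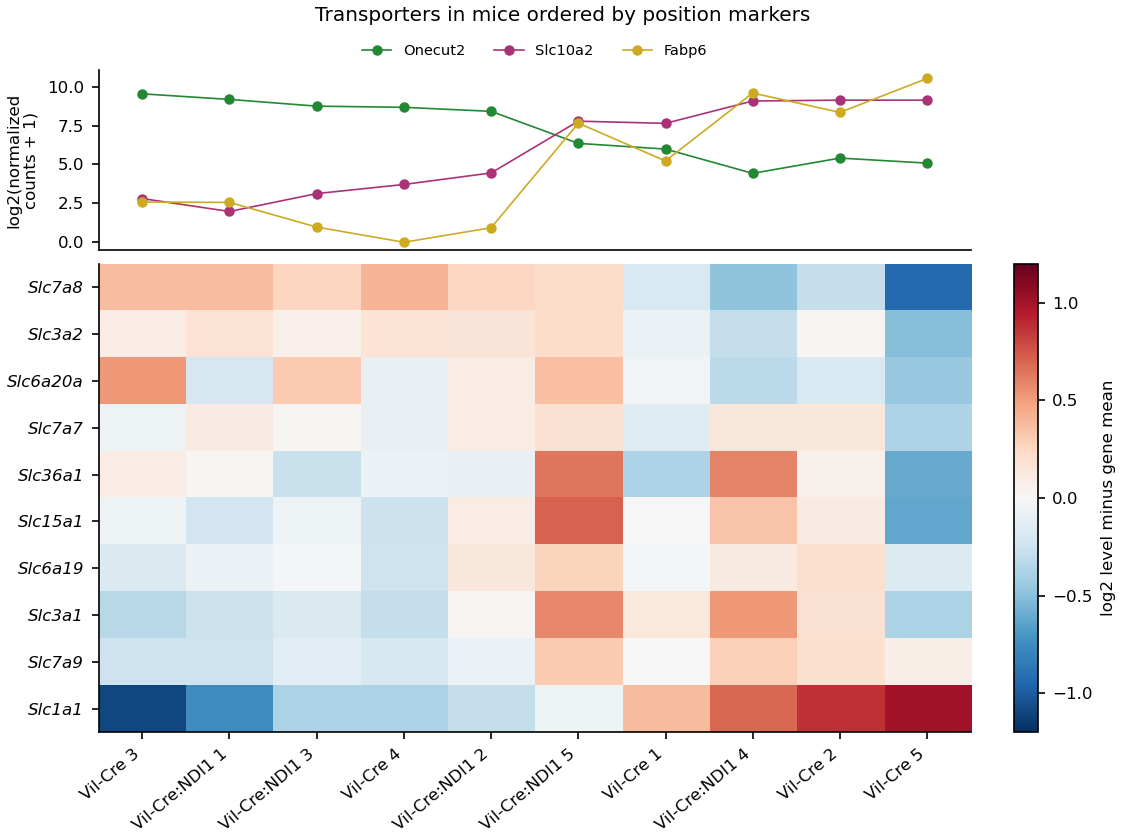
Upper panel, Onecut2, Slc10a2 and Fabp6 as log2(normalized counts + 1) in 10 mice ordered from proximal-like to distal-like marker levels. Lower panel, log2 level of each transporter minus its mean over mice, red for above and blue for below. Slc1a1 runs from blue on the left to red on the right, Slc7a8 from red to blue, and Slc15a1 is lowest in Vil-Cre 5 and highest in Vil-Cre:NDI1 5.

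A term for these sets in the limma fit, added after the data were seen, moved some genotype estimates. The log2 fold change of Slc1a1 went from −0.31 to −0.09, that of Slc7a8 from 0.25 to 0.12, that of Slc3a1 from 0.27 to 0.37 and that of Slc7a9 from 0.06 to 0.14. Those of Slc15a1, Slc36a1 and Slc7a7 were 0.40, 0.40 and 0.21. In that limma fit 4 of the 10 (Slc3a1, Slc7a7, Slc15a1 and Slc6a19) had an unadjusted p under 0.05, against 5.39% of all genes tested. Slc3a1, Slc15a1 and Slc6a19 were correlated with each other at r of 0.82 to 0.90, so the 4 are not separate observations. The lowest was that of Slc3a1, at an unadjusted p of 0.0138 and an adjusted p of 0.857. The sets' part in the differences between genotypes was not tested further.

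The genes whose profile over the 10 mice was most like the mean standardised profile of the transporters were Fam83g (r = 0.98), Plec (r = 0.97), Esd (r = 0.97), Sri (r = 0.96) and Cope (r = 0.95). These are the highest of 14272 genes compared, over 10 mice, and carry no test. The transporters together took 0.416% to 0.534% of reads in Vil-Cre and 0.472% to 0.615% in Vil-Cre:NDI1, with overlapping ranges (exact permutation p = 0.119).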

How the data were processed

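Per the labels and the study's methods, the authors extracted total RNA from whole jejunum, made NEBNext libraries, ran trimGalore! on single-end reads, used STAR for alignment to a GRCm38 genome extended by NDI1, and obtained gene-level numbers from Salmon. The deposited values are a signal, gene counts divided by 1 DESeq2 size factor per library. The annotation release and the strand setting were not given in the sources used here. In every library 100% of non-zero values were whole multiples of 1 read (tolerance 0.001). For Vil-Cre 3 and 4 that unit was close to 1, at 1.0018 and 1.0111, and count tests were also repeated without them.

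The main test was limma 3.58.1 (R 4.3.3), applied to log2(value + 1) with eBayes and its trend option. It covered the 14301 genes that reached 10 in 5 or more libraries, and p-values were adjusted over these by the Benjamini-Hochberg method at a threshold of 0.05. Fold changes are on that scale. Recovered reads went into DESeq2 1.42.0 and edgeR 4.0.16. Exact permutation tests were two-sided. Correlations used 100000 permutations. One partner gene and its pairs are not reported here. Scripts were tested on simulated data. Gene lengths came from GENCODE M21, and promoters from RefSeq (scipy 1.17.1, pandas 2.3.3). Members, lists, tests and named genes (the 10, their partners, the 3 highest per kilobase and the lowest unadjusted p-values of 2 further lists, and the 5 closest profiles) were chosen with earlier results of these data known. Replicates were separate mice.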

Additional observations from a re-analysis of the deposited data

Results flagged for a closer look

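Among 28 sets of 5 mice (14 genes, the 10 transporters and 4 partner proteins, in 2 genotypes), 2 held a mouse far from the other 4, where chance flags about 1 in 20. Slc7a8 was low in Vil-Cre:NDI1 4, at 3097 normalized counts against 5059 to 5601 in the other mice of its genotype. Pdzk1 was high in Vil-Cre:NDI1 5, at 7068 against 4394 to 4745. The enterocyte marker sums of these mice were 551589 in Vil-Cre:NDI1 4 and 743462 in Vil-Cre:NDI1 5, the latter being the highest of the 10 mice. Vil-Cre:NDI1 4 also had the lowest Onecut2 (20.6) and the highest Fabp6 (772) of its genotype, and Slc7a8 did not overlap between the position sets. The parts of enterocyte content and position in these values were not tested.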

How the results depend on the processing

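No transporter was called under any of 25 alternatives, the lowest adjusted p being 0.0836, for Slc1a1 under DESeq2 without Vil-Cre 3 and 4, where its log2 fold change was −0.85 and that of Slc7a8 0.58. In edgeR without the same mice, Slc1a1 had a log2 fold change of −0.86 and an adjusted p of 0.479. Vil-Cre 3 and 4 are the only controls with proximal-like markers, so these fits set 3 distal-like controls against 3 proximal-like and 2 distal-like Vil-Cre:NDI1 mice, in which genotype and position are not balanced. Of 250 fold changes of the 10 transporters, 243 kept their direction. The sign turned for Slc6a20a without Vil-Cre 5 (−0.0092, with 0.24 as the highest when single mice were left out) and for Slc7a9 with equal library totals (−0.0028), with array weights (−0.021), without Vil-Cre:NDI1 4 (−0.0037) or 5 (−0.012, the highest being 0.13), and without Vil-Cre 3 and 4 in DESeq2 (−0.049) and edgeR (−0.057). Calls over all genes numbered 2 with a minimum of 50, with array weights, without Vil-Cre 5 and Vil-Cre:NDI1 4 together, or with the position term, 31 with DESeq2, 276 with DESeq2 without Vil-Cre 3 and 4, 1 with edgeR without Vil-Cre 3 and 4, and 1 to 3 when single mice were left out. The cause was not tested. Equal totals moved the median of all genes from 0.01 to −0.06. The correlation of Slc3a2 with Slc7a7 had an r of 0.69 (permutation adjusted p = 0.0419) and a rho of 0.48 after subtracting position-set means. With genotype means subtracted, r was 0.57 (permutation adjusted p = 0.135). The centred values were permuted over all mice regardless of group, so both p-values can be too small. Leaving out single mice gave r of 0.019 to 0.84 for that pair, the highest without Vil-Cre:NDI1 4, where it passed (permutation adjusted p = 0.02). Over merged exons the levels per kilobase were 3297 for Slc15a1, 3090 for Slc6a19, 1246 for Slc3a2, 1101 for Slc7a7, 1051 for Slc7a9, 602 for Slc6a20a and 85.8 for Slc1a1. A replicate block left 1 gene called. Mice with equal replicate numbers were not alike (correlations from −0.12 to 0.14), so these numbers were not used as pairs. The study used littermates, but the labels name no litter, so litter was not modelled. The position term, the position centring and the 8-library fits were chosen after seeing the data. Each transporter had at least 297 reads in every library.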
